A study of Mus musculus with 6 samples.

Results

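Messenger RNA levels of 10 chemokine and trafficking receptor genes were compared in D10 T cells cultured at 37°C and at 26°C. The genes were taken by symbol from the 41079 genes of the deposited expression table. They were 5 chemokines (Ccl1, Ccl3, Ccl4, Ccl5 and Xcl1), 4 chemokine receptors (Ccr4, Ccr7, Ccr8 and Cxcr4) and S1pr1, a receptor for the lipid sphingosine 1-phosphate (S1P). D10 (D10.G4.1) is a cloned mouse CD4+ helper T cell line, labelled as of lymph node origin, that recognizes a peptide of chicken conalbumin. Its cells were kept for 24 h at 37°C (non-acclimated) or for 24 h at 26°C (cold-acclimated), and the labels name no other treatment or genetic change in either group. Each temperature had 3 libraries of poly(A)+ RNA, numbered replicate 1 to 3. D10 is described as 1 clone, so the replicates were not taken as separate animals. The labels mention old and new RNA extraction batches without assigning libraries to them. The study asked how T cells that hardly crawl in the cold become motile after acclimation, and the comparison here asks whether genes that direct T cell traffic differed between the temperatures and between the replicate numbers.

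Chemokines are small secreted proteins that attract leukocytes along their concentration gradients. They bind receptors that couple mainly to inhibitory G proteins, and signalling from these receptors activates integrins and remodels actin at the leading edge. S1P, which is abundant in blood and lymph, draws lymphocytes out of lymphoid organs through S1pr1. Helper T cells also secrete chemokines themselves, and Ccl1, its receptor Ccr8, and Ccr4 are known from the Th2 class of helper cells, to which D10 belongs.

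The libraries were first checked against their label. The pan T cell gene Cd3e was between 476 and 874 TPM (a level corrected for gene length and library total), and Gata3, the Th2 master regulator, was between 387 and 751 TPM. Cd4, the coreceptor that the label names, went against it in replicates 1 and 2: it was 1.09 and 0.0351 TPM at 37°C and 1.30 and 0.352 TPM at 26°C, but 310 and 328 TPM in the replicate 3 libraries. Trac, the constant part of the T cell receptor alpha chain, was 14.96 and 12.8 TPM in the replicate 2 libraries and between 129 and 207 TPM in the other 4. Cd28, a costimulatory receptor, was likewise lowest in replicate 2, at 7.35 and 5.61 TPM, against 27.9 to 54.5 TPM elsewhere. The Thy1 gene was listed at 0 in all libraries, and Cd5, another T cell marker, reached at most 0.0454 TPM. Of 15 T cell markers 12 were tested, of which 5 were called between replicate numbers by the rule given with the members' results, beside 3.61% of all tested genes. These were Cd4, Trac, Cd28, Cd3d and Lck. Cd3d was 64.3 and 78.6 TPM in the replicate 2 libraries and 240 to 332 TPM elsewhere. Lck was 580 and 732 TPM in the replicate 3 libraries and 223 to 436 TPM elsewhere. Of the 8 markers of CD8 T and NK cells, 10 of B cells and 12 of macrophages, monocytes and dendritic cells, summed levels were 0.428 to 10.1, 2.095 to 3.62 and 8.99 to 16.1 TPM at 37°C, and 0.455 to 3.96, 1.02 to 2.06 and 4.32 to 21.5 TPM at 26°C. Cd8a, Ncr1, Ms4a1 and Cd14 were listed at 0 in all libraries, and Csf1r reached at most 0.0253 TPM. Other genes of these lists were detected, with highest values of 9.38 TPM for Klrk1, 3.13 TPM for Ighm, 6.10 TPM for Itgax and 6.36 TPM for Cd68. Lyz2, a myeloid lysozyme, was 11.6 and 14.8 TPM in the replicate 3 libraries and at most 1.58 TPM in the others, and its part in the results was not tested. Libraries held 16899628 to 31290854 reads, as recovered from the TPM. Because these markers differed between replicate numbers, the differences of Ccl1, Ccr4 and Cxcr4 are also given without each replicate number.

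**Figure D1:**
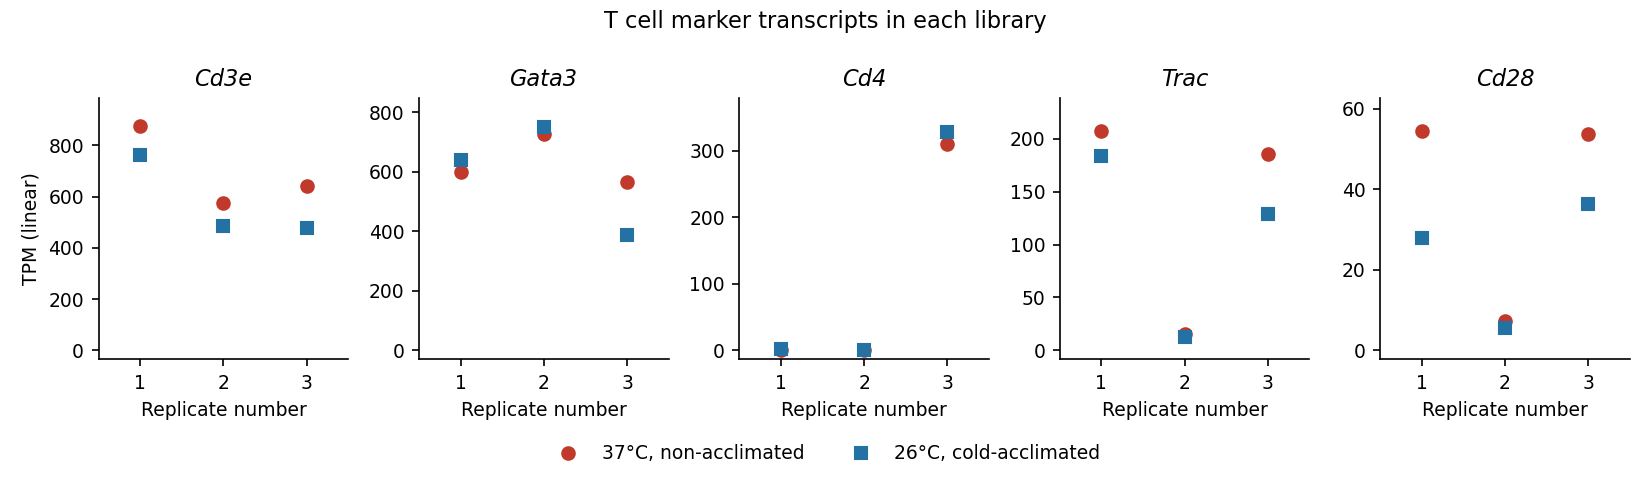
T cell marker levels (linear TPM, vertical axes) for the 3 replicate numbers (horizontal axes), with circles for 37°C and squares for 26°C. Cd4 is high only in replicate 3 (310 and 328 TPM), and Trac and Cd28 are lowest in replicate 2 at both temperatures.

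At 26°C, 7 of the 8 members that could be tested had a lower mean than at 37°C, and 2 of them, Cxcr4 and Ccl1, passed the threshold. Differences are given on the log2(TPM + 1) scale as 26°C minus 37°C, which understates the change of low genes. A gene was called at a limma adjusted p under 0.05 (Benjamini-Hochberg over 12227 genes) and a log2 difference of at least 1 in size. Genes with a mean of at least 1 TPM over the 6 libraries were tested, which left out Xcl1 and S1pr1, and Ccl1 and Ccl4 reached that mean only through the 37°C group. The 2 of 8 called lower stand beside 16.0% of all tested genes, and the 0 called higher beside 2.63%. At an unadjusted limma p under 0.05, 3 were lower and 0 higher, and voom on the recovered reads also called 0 higher. The shares of all tested genes with a lower mean or with such an unadjusted p were not counted. The 7 with a lower mean and the 3 at that p are therefore not shown to be particular to the members. The median difference of the 8 was -0.84, against -0.34 over all tested genes. That all-gene shift became 0.02 after median of ratios scaling of the libraries, and the calls over all genes went from 321 higher and 1954 lower to 802 higher and 1075 lower. In bulk RNA, fewer cells expressing a gene and less RNA of it per cell cannot be told apart.

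**Figure D2:**
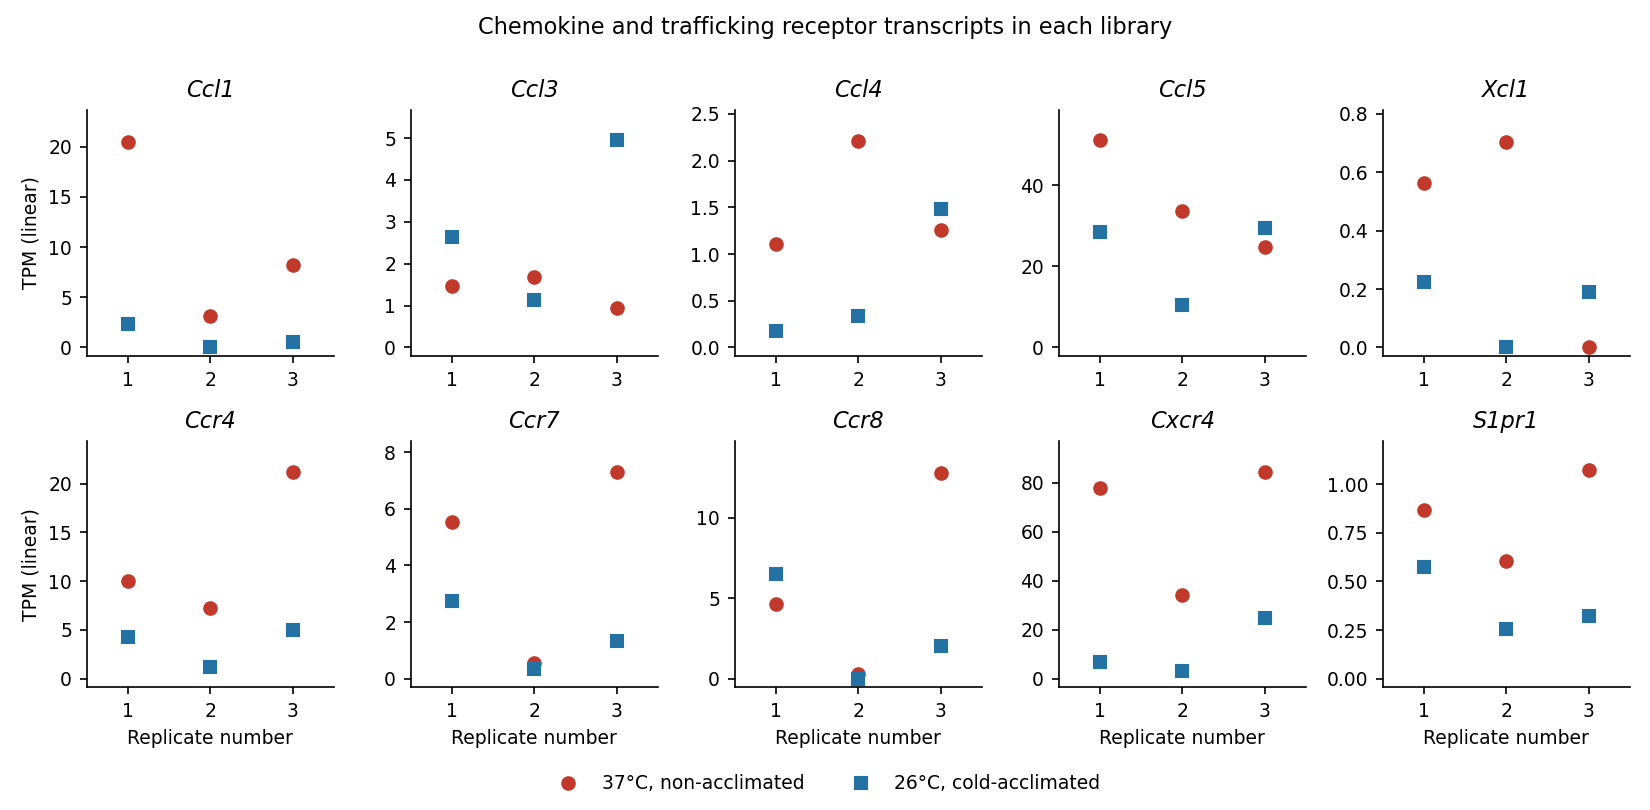
Level of each of the 10 genes (linear TPM, own vertical axis per gene) in each library, by replicate number on the horizontal axis, with circles for 37°C and squares for 26°C. Ccl1, Ccr4, Cxcr4 and S1pr1 have all 26°C values below all 37°C values, and replicate 2 holds the lowest values of most genes.

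Ccl1, Ccr4 and Cxcr4 were lower in every 26°C library than in any 37°C library, which was the case for 3 of the 8 tested members and for 21.2% of all tested genes. Their proximal promoters are shown because these are the tested members whose temperature groups were separate. Of the 10 genes, 6 matched a RefSeq promoter (Ccl1, Ccl3, Xcl1, Ccr4, Ccr8 and Cxcr4). The 250 bases before the RefSeq start are on the build GRCm38.p6, unlike the gene positions, which are on GRCm39. Whether each RefSeq start is also the start of the gene in the deposited data was not checked. Each reads 5′ to 3′ on the strand of the gene. Capitals mark matches on either strand to 5 motifs, and the share of all 32851 RefSeq promoter windows of this length that hold each motif is given with it. The TATA box, which positions the polymerase at many regulated genes, was searched as TATAAA and was found in 12.4% of windows. The core of the site of NRF1, a regulator of housekeeping and respiratory genes, was searched as CGCATGCG and was found in 1.55%. The GC box bound by Sp1 was searched as GGGCGG (32.7% of windows). The core of sites for NFAT, the factor that T cell receptor signals bring to the nucleus, was searched as GGAAA (55.6%). The site of AP-1, which often binds beside NFAT, was searched as TGANTCA (6.75%).
Ccl1 (chr11:82179813-82180062, minus strand): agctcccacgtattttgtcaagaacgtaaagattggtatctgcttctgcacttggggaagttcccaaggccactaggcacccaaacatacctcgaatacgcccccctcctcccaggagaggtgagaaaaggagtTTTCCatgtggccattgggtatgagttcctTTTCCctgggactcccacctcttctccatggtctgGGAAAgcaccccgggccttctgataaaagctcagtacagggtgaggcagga
Ccr4 (chr9:114496545-114496794, minus strand): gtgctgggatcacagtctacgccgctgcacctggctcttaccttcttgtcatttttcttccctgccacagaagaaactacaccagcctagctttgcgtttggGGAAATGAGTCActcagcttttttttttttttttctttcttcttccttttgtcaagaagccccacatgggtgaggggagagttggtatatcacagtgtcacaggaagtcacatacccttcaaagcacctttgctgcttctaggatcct
Cxcr4 (chr1:128592300-128592549, minus strand): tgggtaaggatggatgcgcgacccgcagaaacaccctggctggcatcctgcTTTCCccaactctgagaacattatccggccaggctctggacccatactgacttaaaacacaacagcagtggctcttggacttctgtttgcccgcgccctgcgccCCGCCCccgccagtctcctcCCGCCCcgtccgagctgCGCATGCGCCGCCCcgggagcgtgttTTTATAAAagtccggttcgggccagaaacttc

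The 3 windows held different letters. In the Ccl1 window GGAAA was found 3 times, beginning 116, 86 and 51 bases before the start, and none of the other 4 motifs. In the Ccr4 window GGAAA at 148 bases was joined directly to an AP-1 site at 143 bases, an arrangement noticed after the sequence was seen and found in 13 of the 32851 windows. The Cxcr4 window held TATAAA on both strands at 32 and 30 bases, which overlap each other, the NRF1 core at 58 bases and GC boxes at 95, 75 and 50 bases, together with GGAAA at 199 bases. Its G and C content was 61.2%, against 52.8% in the Ccl1 window and 46.4% in the Ccr4 window. These matches describe letters only, and no binding was measured.

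Among the chemokines, Ccl1 had the largest difference. It lies on chromosome 11 (82067492 to 82070638, minus strand) and encodes the ligand of Ccr8. At 37°C it was 20.5, 3.13 and 8.23 TPM in replicates 1, 2 and 3, and at 26°C it was 2.29, 0 and 0.582 TPM. These values rest on 71, 13 and 50 reads at 37°C and on 10, 0 and 3 reads at 26°C, and 3 reads would be 0.660 TPM in the library listed at 0. The groups did not overlap, and within each replicate number the 26°C library was the lower. The means were 10.6 ± 8.93 TPM at 37°C and 0.957 ± 1.19 TPM at 26°C (SD, n = 3). The log2 difference was -2.43 ± 0.67 (SE, limma adjusted p = 0.040), or -2.096 relative to the median gene. The call depended on the setting: the limma adjusted p was 0.067 after median of ratios scaling, 0.082 with voom on the recovered reads, and between 0.051 and 0.128 without any single library, while the fit with replicate number as a block gave 0.0052. Without both libraries of replicate 1, 2 or 3, the log2 difference was -2.30, -2.63 or -2.38, with a limma adjusted p of 0.18, 0.17 or 0.090.

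Ccl5 was the most abundant of the 5 chemokines. It encodes RANTES, which attracts T cells and monocytes, and lies on chromosome 11 (83416604 to 83421344, minus strand). Its level was 51.3, 33.6 and 24.7 TPM at 37°C and 28.5, 10.4 and 29.5 TPM at 26°C. The groups overlapped, since Ccl5 was lower at 26°C in replicates 1 and 2 and slightly higher in replicate 3. The log2 difference of -0.73 had an unadjusted 95% interval from -1.77 to 0.32 and did not pass the threshold (limma adjusted p = 0.28).

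Ccl3 and Ccl4, the macrophage inflammatory proteins 1 alpha and 1 beta, are made by activated leukocytes. Their genes lie 13205 bases apart on chromosome 11, Ccl3 at 83538669 to 83540204 (minus strand) and Ccl4 at 83553410 to 83555509 (plus strand). Ccl3 was 1.48, 1.69 and 0.947 TPM at 37°C and 2.63, 1.13 and 4.96 TPM at 26°C, and was the only tested member with a higher mean in the cold. Its highest value, of 40 reads, was the replicate 3 library at 26°C, and the groups overlapped. The log2 difference was 0.61 with a 95% interval from -0.37 to 1.59 (limma adjusted p = 0.33). Ccl4 was 1.11, 2.21 and 1.26 TPM at 37°C and 0.175, 0.337 and 1.48 TPM at 26°C, on 1 to 12 reads a library. In replicates 1 and 2 the cold library was lower, in replicate 3 it was not, and the log2 difference of -0.66 had a 95% interval from -1.57 to 0.25 (limma adjusted p = 0.26).

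Xcl1, or lymphotactin, the ligand of Xcr1, lies on chromosome 1 (164759216 to 164763094, minus strand) and was near the limit of detection. It was 0.563, 0.705 and 0 TPM at 37°C and 0.223, 0 and 0.189 TPM at 26°C, which is 0 to 3 reads a library. A count of 0 allows up to 0.481 TPM in the 37°C library of replicate 3 and 0.643 TPM in the 26°C library of replicate 2. With no filter on low values, the log2 difference was -0.29 (limma adjusted p = 0.48). The limits cover counting error only.

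Among the receptors, Cxcr4 showed the largest difference of all 8 tested members on the log2(TPM + 1) scale. It is the receptor of Cxcl12, which retains and positions lymphocytes in bone marrow and lymphoid tissue, and lies on chromosome 1 (128515936 to 128520036, minus strand). Its level was 77.8, 34.3 and 84.2 TPM at 37°C and 6.74, 2.98 and 24.9 TPM at 26°C. Even the highest 26°C value, that of replicate 3, lay below the lowest 37°C value, that of replicate 2. With 56 to 2117 reads a library, counting error was small beside the spread between replicates. The means were 65.4 ± 27.2 TPM at 37°C and 11.5 ± 11.7 TPM at 26°C (SD, n = 3), and the log2 difference was -2.74 ± 0.68 (SE, limma adjusted p = 0.030), or -2.40 relative to the median gene. The call held with median of ratios scaling (adjusted p = 0.046) and voom (0.045), and not with no filter on low values (0.080) or quantile normalization (0.054). The fit with replicate number as a block gave a limma adjusted p of 0.0055. Leaving out any single library ended the call (limma adjusted p = 0.063 to 0.102), except the 26°C library of replicate 3, without which it was 0.0042. Over all tested genes, the 1954 called lower became 345 to 600 without a library of replicate 1 or 2. Without the 37°C library of replicate 3 they were 1820. Without both libraries of replicate 1, 2 or 3, the log2 difference of Cxcr4 was -2.43, -2.53 or -3.25, and the limma adjusted p was 0.26, 0.17 or 0.0072. With 2 replicate numbers left, no gene of the 12227 was called when replicate 1 or 2 was absent.

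Ccr4, the receptor of Ccl17 and Ccl22 and a homing receptor of Th2 and skin-directed cells, lies on chromosome 9 (114319384 to 114334544, minus strand). It was 10.03, 7.28 and 21.2 TPM at 37°C and 4.26, 1.15 and 4.94 TPM at 26°C. All 26°C libraries were below all 37°C libraries, and replicate 2 was the lowest at both temperatures. The means were 12.8 ± 7.35 and 3.45 ± 2.02 TPM (SD, n = 3). The log2 difference of -1.64 ± 0.51 (SE) did not pass the threshold (limma adjusted p = 0.058, 95% interval from -2.83 to -0.45). With replicate number as a block, it did (limma adjusted p = 0.0087), and 3 of the 8 tested members, Ccl1, Ccr4 and Cxcr4, were then called lower, beside 21.9% of all tested genes. Without replicate 1, 2 or 3, in the fit with no block, the log2 difference of Ccr4 was -1.92, -1.48 or -1.51 (limma adjusted p = 0.24, 0.21 or 0.055).

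Ccr7, which brings naive and central memory T cells into lymph nodes along Ccl19 and Ccl21, lies on chromosome 11 (99035025 to 99045903, minus strand). Its level was 5.54, 0.554 and 7.28 TPM at 37°C and 2.75, 0.338 and 1.34 TPM at 26°C. The 26°C library was the lower within each replicate number, but the groups overlapped because replicate 2 was low at both temperatures. The log2 difference of -0.95 had a 95% interval from -2.54 to 0.64 (limma adjusted p = 0.35).

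Ccr8, the receptor of Ccl1, lies on chromosome 9 (119921199 to 119923972, plus strand) and varied most between replicate numbers. It was 4.67, 0.316 and 12.8 TPM at 37°C and 6.50, 0 and 2.03 TPM at 26°C, where the 0 allows up to 0.288 TPM. Replicate 1 was higher and replicate 3 lower in the cold. The log2 difference of -0.73 had a 95% interval from -3.00 to 1.55 (limma adjusted p = 0.63), and its sign turned to 0.05 without the 37°C library of replicate 3 and to 0.03 without the 26°C library of replicate 2. The ligand Ccl1 and its receptor shared part of their order of libraries. At 37°C Ccl1 was highest in replicate 1 and Ccr8 in replicate 3, while both were lowest in replicate 2. At 26°C both were highest in replicate 1, next in replicate 3, and listed at 0 in replicate 2.

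S1pr1 lies on chromosome 3 (115504082 to 115508704, minus strand) and was low in all libraries. It was 0.867, 0.603 and 1.07 TPM at 37°C and 0.572, 0.257 and 0.323 TPM at 26°C, on 7 to 39 reads a library. Each 26°C value was below each 37°C value, with means of 0.847 ± 0.234 and 0.384 ± 0.166 TPM (SD, n = 3). The gene was under the filter. With no filter on low values, its log2 difference was -0.41 and was not called (limma adjusted p = 0.14).

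**Figure D3:**
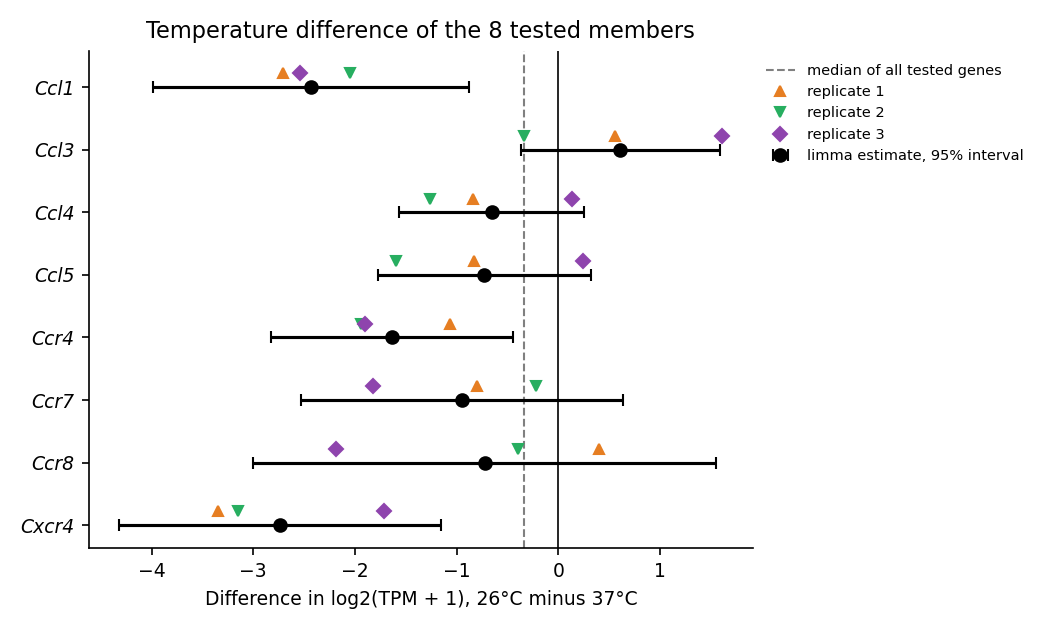
Difference in log2(TPM + 1) at 26°C minus 37°C for the 8 tested members (horizontal axis), as the limma estimate with its 95% interval (black) and within each replicate number (coloured symbols). The dashed line is the median of all tested genes (-0.34). The 3 within-replicate differences of Ccl1, Ccr4 and Cxcr4 are all below -1.

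The order of the mean levels differed between the temperatures. At 37°C the means ran from Cxcr4 and Ccl5 (36.5 TPM) through Ccr4, Ccl1, Ccr8 (5.93 TPM), Ccr7 (4.46 TPM), Ccl4 (1.53 TPM), Ccl3 (1.37 TPM) and S1pr1 to Xcl1 (0.423 TPM). The only neighbours in that order whose libraries did not overlap were Ccl5 and Ccr4. At 26°C Ccl5 (22.8 TPM) stood first, followed by Cxcr4, Ccr4, Ccl3 (2.91 TPM), Ccr8 (2.84 TPM), Ccr7 (1.48 TPM), Ccl1, Ccl4 (0.665 TPM), S1pr1 and Xcl1 (0.137 TPM), and only S1pr1 and Xcl1 did not overlap. Cxcr4 made up 44.8%, 40.6% and 52.1% of the summed TPM of the 10 genes in replicates 1, 2 and 3 at 37°C, and 12.3%, 17.9% and 35.4% at 26°C. The sum itself was 173.9, 84.4 and 161.6 TPM at 37°C and 54.6, 16.6 and 70.2 TPM at 26°C. The highest sum in the cold was below the lowest at 37°C.

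Between replicate numbers, with temperature kept as a term, 1 of the 8 tested members, Ccl1, passed limma's F test with a range of at least 1 between the replicate means, beside 3.61% of all tested genes. Its range on the log2 scale was 2.05, from the highest mean in replicate 1 to the lowest in replicate 2 (limma adjusted p = 0.046), and the adjusted p was 0.090 with voom and 0.22 with no filter. With a pseudocount of 0.1, Ccl1 lost the call (limma adjusted p = 0.054) and Ccr8 gained it (0.042). Ccr8, Cxcr4, Ccr7 and Ccr4 had ranges of 2.51, 1.99, 1.78 and 1.44 (limma adjusted p = 0.092, 0.096, 0.10 and 0.12). Ccl5, Ccl4 and Ccl3 ranged over 0.98, 0.59 and 0.51 (limma adjusted p = 0.38, 0.63 and 0.75). Of the 8 tested genes, 7 had their lowest replicate mean in replicate 2, the number with the low Trac and Cd28, and 5 of them were lowest there at both temperatures. The share of all tested genes lowest in replicate 2 was not counted, so this is not shown to be particular to the members. At 37°C, Ccl3 was highest in replicate 2 and Ccl5 lowest in replicate 3. Ccr8 in replicate 2 was at 0.316 and 0 TPM, against 2.03 to 12.8 TPM elsewhere, and Ccr7 at 0.554 and 0.338 TPM, against 1.34 to 7.28 TPM. Replicate 3, with the high Cd4, held the highest Cxcr4 and Ccr4 at each temperature. The part of Cd4, Trac and Cd28 in these levels was not tested. Leaving out a replicate 3 library raised the number of members called to 7 (the 37°C library) or 6 (the 26°C library), while the calls over all 12227 genes rose from 442 to 3284 or 2531. Leaving out any other single library gave 0 members.

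The wider chemokine and trafficking network was read from 5 lists of 138 genes, of which 74 were tested, 1 was called higher and 9 lower at 26°C, a share of 12.2% lower, against 16.0% lower and 2.63% higher over all tested genes. Of 32 other chemokines, 19 were listed at 0 in all libraries and 3 were tested, with 0 called and a median difference of -0.14. Before adjustment the limma p was under 0.05 for 0 of these 3, and voom called 0. Cxcl10, an interferon-induced ligand of Cxcr3, was 15.6, 26.2 and 0.302 TPM at 37°C and 2.20, 1.11 and 0 TPM at 26°C, with a log2 difference of -2.15 (limma adjusted p = 0.19, and 0.0295 with the replicate block). The groups overlapped through replicate 3, where the gene was nearly absent, and without the 37°C library of replicate 3 the difference was -3.49 and was called (limma adjusted p = 0.015). Without both libraries of replicate 3 it was -3.03 (limma adjusted p = 0.0045). Ccl25, the thymic and gut ligand of Ccr9, and the neutrophil chemokine Cxcl3 differed by 0.16 and -0.14 (limma adjusted p = 0.78 and 0.92), and the sign of each depended on the setting. Of the ligands of Cxcr4 and Ccr4, Cxcl12 was listed at 0 in all libraries, and Ccl17 and Ccl22 reached at most 0.497 and 0.202 TPM.

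Of 21 other chemokine receptors, 2 were tested and 1 was called lower. Ccr10, a receptor of Ccl27a and Ccl28 on skin-homing T cells, was 3.38, 2.54 and 2.36 TPM at 37°C and 0.670, 0.515 and 0.454 TPM at 26°C. The groups were well apart and the replicates close, and the log2 difference was -1.27 ± 0.28 (SE, limma adjusted p = 0.022). Ccrl2, an atypical receptor that binds chemerin, differed by -0.78 (limma adjusted p = 0.46). Cxcr3 did not exceed 0.151 TPM in any library.

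In the S1P pathway, 7 of 14 genes were tested and 1 was called lower, with a median of -0.55. Plpp2, a lipid phosphatase that can dephosphorylate S1P, was 40.6, 42.9 and 41.8 TPM at 37°C and 19.7, 14.3 and 26.1 TPM at 26°C, a log2 difference of -1.06 ± 0.27 (SE, limma adjusted p = 0.032). After median of ratios scaling it was no longer called (limma adjusted p = 0.087). Sgpl1, the lyase that degrades S1P, and Sgpp1, an S1P phosphatase, were the most abundant, and differed by 0.21 and 0.20 (limma adjusted p = 0.55 and 0.64).

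Among 23 trafficking regulators, 19 were tested, 1 was called higher and 0 lower, with a median of -0.33. Ptgdr2, the prostaglandin D receptor (CRTH2) that marks Th2 cells and guides their migration, was 0.842, 0.670 and 1.83 TPM at 37°C and 7.34, 6.79 and 3.495 TPM at 26°C. Every cold library was above every 37°C library, and the log2 difference was 1.69 ± 0.37 (SE, limma adjusted p = 0.021). The integrin genes Itgb7, Itgal and Itgb2, which serve adhesion to vessel walls, differed by -0.05, -0.36 and -0.16 (limma adjusted p = 0.93, 0.33 and 0.80), and all 3 had the opposite sign after median of ratios scaling. Cd44, the hyaluronan receptor, and P2ry10, a receptor for lysophosphatidylserine, differed between replicate numbers by 4.76 and 2.85 (limma adjusted p = 0.0032 and 0.023). Cd44 was 9.75, 49.2 and 1.56 TPM at 37°C and 30.1, 162 and 3.34 TPM at 26°C, so that replicate 2 was the highest and replicate 3 the lowest. Its temperature difference of 1.33 was not called (limma adjusted p = 0.54) except with the replicate block (0.012). Itgb1, which encodes the beta 1 integrin chain, was listed at 0 in all libraries.

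Chemokine receptor signalling gave 43 tested genes of 48, with 7 called lower, 0 called higher and a median of -0.32. The shares over all tested genes were 16.0% lower and 2.63% higher, and their median was -0.34. Pik3r5, the p101 regulatory subunit of phosphoinositide 3-kinase gamma, was 4.89, 10.1 and 7.91 TPM at 37°C and 0.210, 0.353 and 1.22 TPM at 26°C, a log2 difference of -2.44 ± 0.38 (SE, limma adjusted p = 0.0090). Like Ccr10, it reached a mean of 1 TPM only through the 37°C group. Plcb3, a phospholipase C activated by G proteins, was 59.5, 55.4 and 59.3 TPM at 37°C and 19.9, 15.8 and 12.8 TPM at 26°C, a log2 difference of -1.80 ± 0.24 (SE, limma adjusted p = 0.0074). Both stayed called under each scaling and without any single library. The kinase Grk5, which desensitizes receptors, Rgs14, which shortens G protein signals, the phospholipase Plcb2 and the tyrosine kinase Ptk2b differed by -1.63, -1.32, -1.12 and -1.07 (limma adjusted p = 0.019, 0.033, 0.035 and 0.019). Of these 4, Grk5 alone stayed called after median of ratios scaling. Ccr10, Plpp2, Ptgdr2, Grk5, Rgs14, Plcb2 and Ptk2b each lost the call when any library of replicate 1 or 2 was left out (limma adjusted p = 0.055 to 0.12). Over all tested genes, these leave-outs cut the calls from 1954 lower to 345 to 600, and from 321 higher to 59 to 78. With the replicate block and all libraries, each of these genes was called (limma adjusted p = 0.011 to 0.026). The G protein subunit Gnai2, the small GTPase Rap1b and the actin regulator Coro1a, the most abundant of the list, differed by -0.35, 0.39 and -0.39 (limma adjusted p = 0.42, 0.25 and 0.45), with Gnai2 and Coro1a changing sign under median of ratios scaling. Rasgrp2, which activates Rap1, and Rgs3 differed between replicate numbers by 2.31 and 1.93 (limma adjusted p = 0.023 and 0.048), and the temperature difference of Rasgrp2 was -1.57 (limma adjusted p = 0.16, and 0.0072 with the replicate block). Rgs3 was 0.370, 0.0618 and 3.62 TPM at 37°C and 0.313, 0.0376 and 2.45 TPM at 26°C. It reached a mean of 1 TPM only through replicate 3, where it was high, so its replicate call is not independent of the filter.

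**Figure D4:**
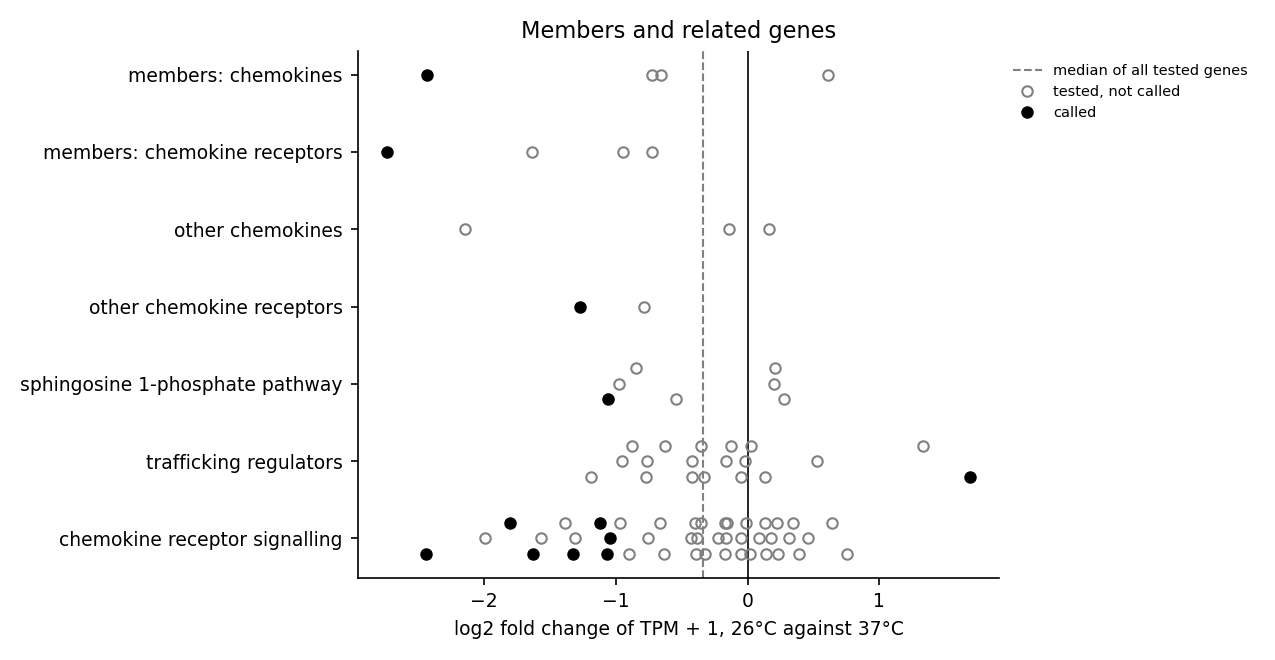
log2 fold change of TPM + 1 at 26°C against 37°C (horizontal axis) for each tested gene, with 1 line of points per group of genes, filled where called and open where not. The dashed line is the median of all tested genes (-0.34). The lowest called gene of the signalling list is Pik3r5 at -2.44, and Ptgdr2 at 1.69 is the only filled point above 0.

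For each tested member, the genes with the most similar pattern were sought among the tested genes with a mean of at least 10 TPM, by Pearson's correlation of log2(TPM + 1) over the 6 libraries, as a description. The 6 points share their libraries, and 335 of 8275 genes exceeded 0.95 for Cxcr4 alone. Cxcr4 was most like Trpt1 and Wrap53 (both 1.00 to 2 decimals), Ccr4 like Naa40 (1.00) and Uqcc3 (0.99), and Ccl1 like Slirp and Pisd-ps3 (both 0.99). Ccr8 was most like Gadd45g (0.99) and Maf (0.98), and Ccr7 like Maf (0.97) and Cox7c (0.97). Maf, a Th2 transcription factor, was 16.4, 10.5 and 21.8 TPM at 37°C and 15.2, 9.27 and 13.0 TPM at 26°C, lowest in replicate 2 at each temperature as both receptors were. Ccl4 was most like Anp32e and Smc3 (both 0.99), Ccl5 like Yipf1 and Tagln2 (both 0.98), and Ccl3 like Rnf185 and Trappc2 (both 0.97).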

How the data were processed

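RNA was measured in 6 D10 libraries, 3 at 37°C and 3 at 26°C, grouped by their labels. According to the submitters' processing notes and the study's methods, reads were handled with FastQC 0.11.7, Trimmomatic 0.38, HISAT2 2.1.0 (GRCm39) and featureCounts 1.6.3. The values used are TPM as deposited by the authors. The sources used here do not say which annotation, gene lengths or strand option were used, nor how counts became TPM. A gene's TPM in all libraries are multiples of 1 step, which returned the reads behind them, whole within 1e-06 reads for 100% of the 21195 genes above 0 (for 901 genes only after the step was multiplied by a common factor).

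The log2(TPM + 1) values were fitted with limma 3.58.1 in R 4.3.3, with a mean-variance trend and no replicate term, over the 12227 genes with a mean of at least 1 TPM. Replicate numbers were tested with limma's F test, with temperature as a term. The procedure was tested on simulated data. Tables were made with pandas 2.3.3 and numpy 2.4.6 under Python 3.11.15, exact tests and intervals with scipy 1.17.1, and figures with matplotlib 3.10.9.

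Deviations from the condition mean correlated at 0.48 to 0.51 between libraries of the same replicate number and at -0.41 to 0.02 otherwise, so the numbers pair the libraries.

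The members and lists were chosen with earlier results of these data known. The lists of related and marker genes came from general knowledge. Besides the 10 members, the genes named were, for each list, the 3 with the highest mean TPM among those tested and every called gene (at most the 6 with the largest change), the 2 genes most like each member with a mean of at least 10 TPM, and the markers a statement rests on. Other genes (ligands of the member receptors, Cxcr3, Itgb1) were named after their values were seen. Alternatives were a pseudocount of 0.1, no filter, median of ratios scaling, quantile normalization, voom on recovered reads, a replicate block, and leaving out libraries. Some genes of the lists are not reported here.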

Additional observations from a re-analysis of the deposited data

How the results depend on the processing

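The number of members called lower at 26°C, 2 as reported, was 1 with a pseudocount of 0.1, median of ratios scaling or voom, 0 with no filter or quantile normalization, and 0 to 2 without single libraries or both libraries of a replicate number. The replicate numbers pair the libraries, and a replicate block gave 3 members, as it did with median of ratios scaling or voom, adding Ccr4 and changing no other member's call. Among the related genes, 9 lower and 1 higher became 4 and 0 with no filter, 4 and 3 with median of ratios scaling and with voom, 2 and 1 with quantile normalization, 14 and 2 with the block, 7 and 4 with the block and median of ratios scaling, and 8 and 4 with voom and the block. Leaving out libraries gave 0 to 15 lower and 0 to 1 higher. Between replicate numbers, the 1 member called became 0 with no filter or voom and 0 to 7 without libraries, and with a pseudocount of 0.1 it was Ccr8 in place of Ccl1. The cause of these changes was not tested. Of the 8 tested members, 7 kept their sign under all 17 alternatives, and Ccr8 ranged from -1.64 to 0.053 without libraries. Neither the replicate block on log2(TPM + 1) nor the lack of a filter alters a difference, so these could not turn a sign.

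Differences that turned were all uncalled. With median of ratios scaling, with or without the block, Coro1a was 0.0091, Cxcl3 0.071, Gnai2 0.049, Itgal 0.042, Itgb2 0.23 and Itgb7 0.35. With voom, Coro1a was 0.012, Cxcl3 0.47, Gnai2 0.047, Itgal 0.042, Itgb2 0.23 and Itgb7 0.35, and with voom and the block Coro1a was 0.00886, Gnai2 0.050, Itgal 0.042, Itgb2 0.24 and Itgb7 0.35. Cxcl3 was 0.12 with a pseudocount of 0.1 and 0.25 with quantile normalization, and Rgs3 0.020 with the latter. Without libraries, Ccl25 ranged from -0.067 to 0.43, Cxcl3 from -0.68 to 0.82, Itgb2 from -0.53 to 0.16, Itgb7 from -0.33 to 0.21 and Rgs3 from -0.69 to 0.47. Leaving out both libraries of a replicate number, and voom with the block, were chosen after seeing the data. The low read numbers of Xcl1, S1pr1, Ccl3 and Ccl4 limit what could be detected.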

Other observations

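The balance of reads between the neighbouring genes Ccl3 and Ccl4 was looked at after the values were seen. Ccl4 held 38.5% (5 of 13 reads, exact 95% interval from 13.9% to 68.4%), 52.2% (12 of 23, from 30.6% to 73.2%) and 52.6% (10 of 19, from 28.9% to 75.6%) of their joint reads in replicates 1, 2 and 3 at 37°C. At 26°C the share was 5.26% (1 of 19, from 0.133% to 26.0%), 20.0% (2 of 10, from 2.52% to 55.6%) and 20.0% (10 of 50, from 10.03% to 33.7%). Every 26°C share was below every 37°C share. The intervals cover counting error only, and within each replicate number those of the 2 temperatures overlap. A permutation test of the shares between the temperatures gave p = 0.1. That is the smallest value it can give with 3 libraries a group, and the separation of the shares fixed it. Because the pattern was chosen for its values, that test lends it no support.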
